A study of Glycine max with 6 samples.

Results

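The genes described here are 6 soybean (*Glycine max*) genes of sterol and brassinosteroid (BR) synthesis. Each has 1 probe among the 66195 deposited probes of the Affymetrix soybean whole-transcript array. All of these probes match a gene ID, and by the paper's count the array holds further probes. The 6 genes were taken by gene ID from the deposited list that pairs probes with Glyma1 gene models. Glyma08g06810 and Glyma13g32600 match the squalene epoxidase gene *SQE1* of *Arabidopsis*, Glyma12g01160 matches the sterol methyltransferase gene *SMT1*, and Glyma13g07800 matches the sterol desaturase gene *STE1*, also named *DWF7*. Glyma01g38180 matches the steroid hydroxylase gene *DWF4*, and Glyma02g08950 matches a family of steroid reductases. These matches come from the annotation in the paper's supplementary tables and were not tested here. By their IDs, the genes lie on chromosomes 8, 13, 12, 13, 1 and 2 in this order.

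V6 leaves of Williams 82 plants were compared, named for the late vegetative stage at which treatment began. By the paper, the plants were at beginning bloom when leaves were taken. There were 3 drought-stressed plants (numbers 1, 2 and 4) and 3 well-watered plants (numbers 14, 15 and 16), with 1 array for each plant. The drought-stressed plants had gone 6 days without water, until the soil held 5% moisture, and RNA came from the fourth trifoliate leaf. Both groups were the same cultivar in the same greenhouse, aged 28 days at the start of treatment by the treatment protocol, although the growth protocol gives 35 days for V6. Pots held 3 plants each and the pot of each plant is not given in the sources used here, so p-values measure the spread between these plants only. If the 3 plants of a group shared a pot, effects of pot and of treatment could not be told apart. Soil moisture of the well-watered pots is not in the sample labels, but the paper gives a range for it and the leaf water content of both groups. By the labels, 1 further biological repeat of each treatment was left out of the arrays, and how the 3 were chosen is not given.

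Sterols are membrane lipids, and in plants they are also the starting material of BRs, the steroid hormones that promote cell expansion in leaves and stems. The chain begins with mevalonate and leads to squalene, which squalene epoxidase oxidises before a cyclase closes the rings. Methyltransferases, desaturases and reductases then shape the sterol, and at campesterol a set of cytochrome P450 enzymes and a steroid reductase take over and make the hormone. Oxidosqualene also feeds triterpenoids, among them the saponins of legumes, so squalene epoxidase serves more than sterols.

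Of the 6 genes, 4 lay higher under drought and 2, the matches of the sterol methyltransferase SMT1 and the sterol desaturase STE1, lay lower. The *SQE1* matches, the *DWF4* match and the steroid reductase match were higher in the drought-stressed leaves, by 2.98-fold (Glyma08g06810), 2.16-fold (Glyma13g32600), 2.94-fold (Glyma01g38180) and 2.54-fold (Glyma02g08950). The *SMT1* match Glyma12g01160 was 11.6-fold lower and the *STE1* match Glyma13g07800 was 3.72-fold lower. All 6 were picked with these changes known. The paper lists 5 of them among hormone genes that passed a fold of 2 and a corrected p of 0.05 in this same contrast, and the *DWF4* match was added from earlier results of it. Their changes are therefore a description without a test. The groups did not overlap in any of the 6 genes, nor in 31.3% of all probes, made up of 14.4% higher and 16.9% lower under drought. By limma with the same thresholds, 4 of the 6 were higher and 2 lower, while over all probes 4.33% were higher and 5.14% lower, together 9.46%. Nothing is read from this difference, because the members were selected by it.

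**Figure D1:**
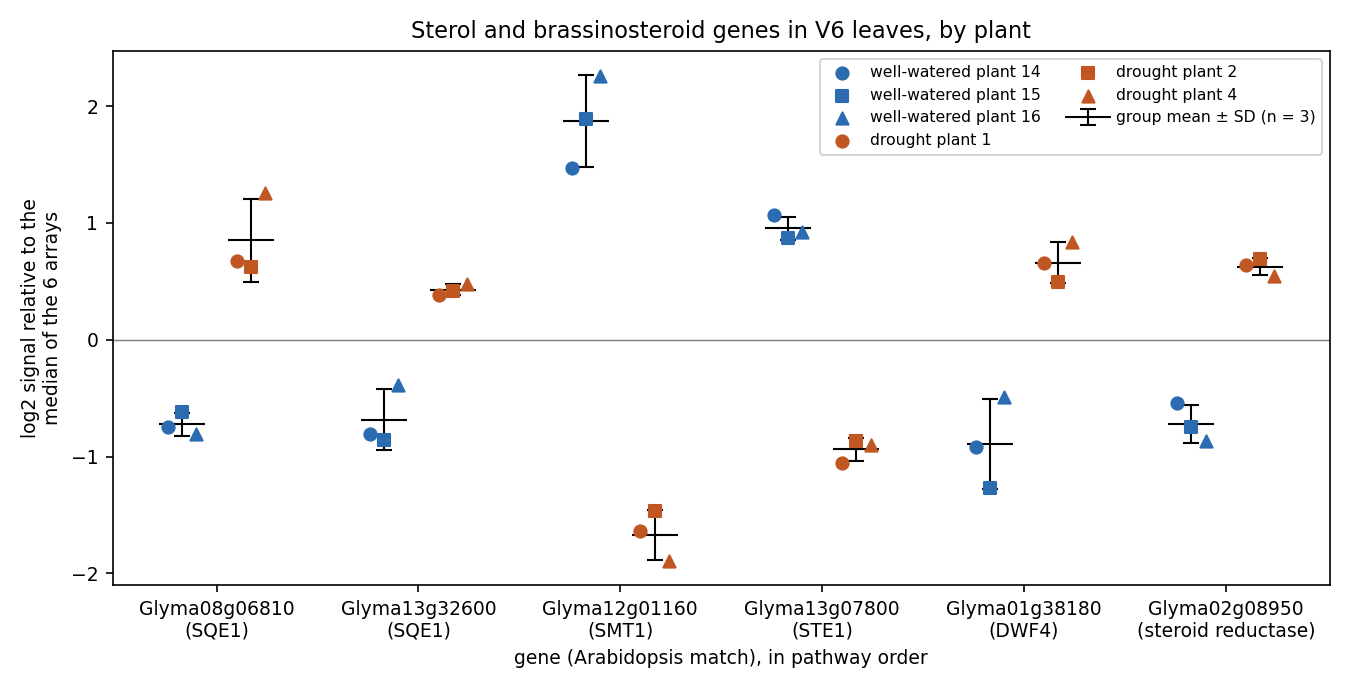
Log2 signal of the 6 genes in each of the 6 plants, relative to the median of the probe, with genes on the x axis in pathway order, except that the steroid reductase match, whose place is not known, is drawn after the *DWF4* match by assumption, well-watered plants in blue and drought-stressed plants in orange. Horizontal lines and bars are group means ± SD (n = 3). For each gene the groups stand apart, with the widest gap, 2.94 log2 units, in the *SMT1* match Glyma12g01160.

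The authors' log2 signals were scaled array by array to the 75th percentile, and the median of the 6 values of a probe was then set to 0. They give differences between plants but no absolute level, so levels cannot be compared between genes and the leaf label cannot be checked. When the groups do not overlap, this centring places the innermost plant of each group at equal distances above and below 0. Array medians ran from -0.097 to 0.13. Matches of the light-harvesting gene *LHCB4.2* (Glyma01g28810) and of the oxygen-evolving complex gene *PSBO2* (Glyma01g38750) were both lower under drought, with log2 fold changes of -1.77 (SE 0.17, adjusted p = 6.6e-05 from limma) and -1.17 (SE 0.20, adjusted p = 0.0022 from limma). The paper had already reported many photosynthesis genes as lower under drought in these leaves, and such changes do not test the leaf label. Less RNA per cell and fewer cells of a type cannot be told apart in such whole-leaf samples, and the part of either in the results below was not tested.

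Squalene epoxidase carries out the oxygen-requiring step that commits squalene to ring closure. For Glyma08g06810, log2 signals were -0.75, -0.62 and -0.81 in well-watered plants 14, 15 and 16, and 0.68, 0.62 and 1.26 in drought-stressed plants 1, 2 and 4. Drought-stressed plant 4 stood well above the other drought-stressed plants, which differed little, and the groups did not overlap. The means were -0.73 ± 0.097 (SD, n = 3) with water and 0.85 ± 0.35 (SD, n = 3) under drought, a log2 fold change of 1.58 with a standard error (SE) of 0.20. Without drought-stressed plant 4 the log2 fold change was 1.37, the lowest of the 6 values obtained when each plant was left out in turn.

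The other *SQE1* match, Glyma13g32600, had log2 signals of -0.81, -0.86 and -0.39 in the well-watered plants and 0.39, 0.42 and 0.48 in the drought-stressed plants. Here the spread sat in the well-watered group, where plant 16 was higher than the rest, and the drought-stressed plants were close together (SD 0.046, n = 3). The log2 fold change was 1.11 (SE 0.18), the smallest of the 6 genes and 0.11 above the log2 value of 1 that a fold of 2 requires. In the plants, the relative signal of Glyma08g06810 minus that of Glyma13g32600 was 0.060, 0.24 and -0.43 with water and 0.29, 0.20 and 0.78 under drought. The 2 sets overlap, and the changes of the pair differed by 0.47 log2 units, a value given without a test. Probe sequences were not used here, so signal shared between these 2 matches of 1 *Arabidopsis* gene was not tested.

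SMT1 adds the first methyl group to the sterol side chain and so acts early in the sterol route of plants. Its match Glyma12g01160 had log2 signals of 1.47, 1.89 and 2.26 in well-watered plants 14, 15 and 16 and of -1.64, -1.47 and -1.90 in drought-stressed plants 1, 2 and 4. The groups were separated by 2.94 log2 units, several times the range within either group, which was 0.79 with water and 0.43 under drought. The means were 1.87 ± 0.39 (SD, n = 3) and -1.67 ± 0.21 (SD, n = 3). The log2 fold change of -3.54 (SE 0.22) was lower than that of all but 144 of the 66195 probes. Over the plants left out in turn it stayed between -3.74 and -3.35.

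STE1 introduces a double bond into the sterol ring, and *Arabidopsis* plants without it are dwarfed. Its match Glyma13g07800 was the most uniform of the 6 genes among plants. Log2 signals were 1.07, 0.87 and 0.93 in the well-watered plants and -1.05, -0.87 and -0.90 in the drought-stressed plants, with SDs of 0.10 and 0.098 (n = 3 each). No plant stood apart from its group. The log2 fold change was -1.89 (SE 0.16), and 1092 of the 66195 probes had lower values.

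DWF4 is the cytochrome P450 that hydroxylates the side chain at the entry to BR synthesis, and in *Arabidopsis* its transcription is repressed when BR signaling is active. Its match Glyma01g38180 had log2 signals of -0.92, -1.27 and -0.49 in well-watered plants 14, 15 and 16 and of 0.66, 0.49 and 0.84 in drought-stressed plants 1, 2 and 4. The well-watered plants were the more scattered group, with a range of 0.77 against 0.34 under drought, and plants 15 and 16 were farthest apart. The groups were 0.98 log2 units apart at their closest. The log2 fold change was 1.55 (SE 0.22). It was 1.75 without well-watered plant 16 and 1.37 without well-watered plant 15.

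Steroid reductases of this family saturate a ring double bond, as DET2 does in BR synthesis in *Arabidopsis*. The match of Glyma02g08950 is a relative whose place in the BR route the annotation does not give. Its log2 signals were -0.54, -0.75 and -0.87 in the well-watered plants and 0.64, 0.69 and 0.54 in the drought-stressed plants. The drought-stressed plants were tightly grouped (SD 0.075, n = 3), and the gap to the well-watered plants was 1.09 log2 units. The log2 fold change was 1.35 (SE 0.16).

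In order of log2 fold change, the 4 higher genes were Glyma08g06810 (1.58), Glyma01g38180 (1.55), Glyma02g08950 (1.35) and Glyma13g32600 (1.11). Neighbours in this order differed by less than the sum of their SEs. The *SMT1* and *STE1* matches, with log2 fold changes of -3.54 and -1.89, differed by far more than theirs. Of the 66195 probes, 1420 had a higher log2 fold change than Glyma08g06810 and 2500 a higher one than Glyma13g32600.

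**Figure D2:**
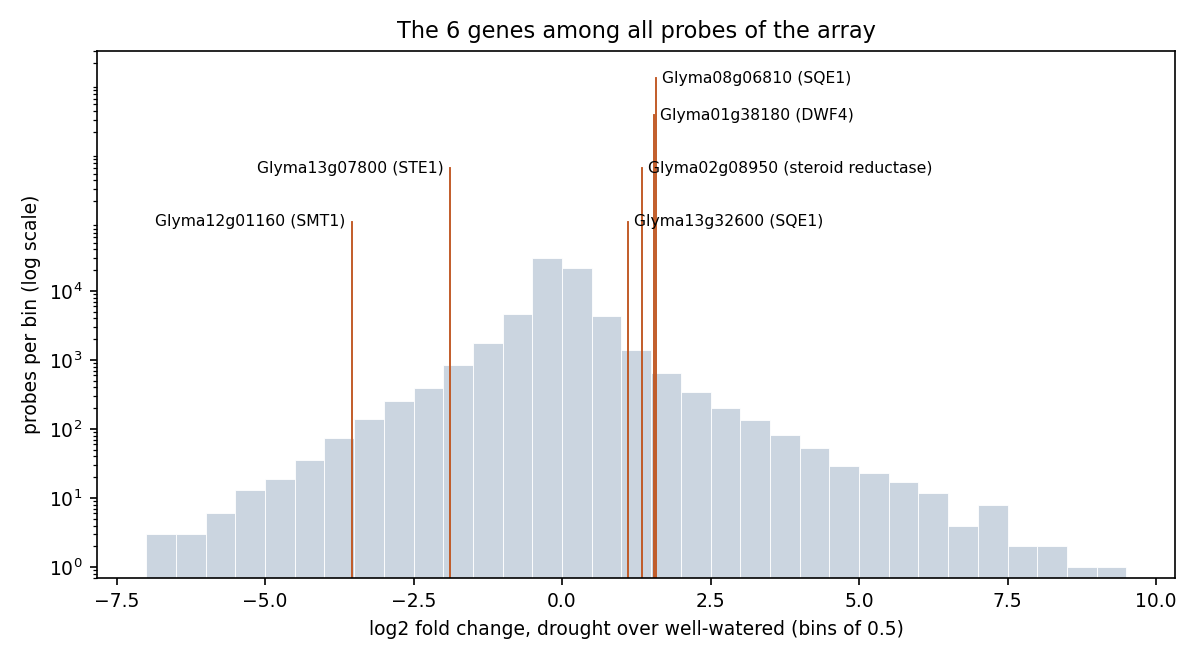
Number of probes, on a log scale, in bins of 0.5 of the log2 fold change (drought-stressed minus well-watered), for all 66195 probes, with orange lines at the 6 genes. The 4 higher genes lie between 1.11 and 1.58, near one another, and the *SMT1* match lies far out at -3.54.

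Drought-stressed plant 4 was the farthest from the well-watered group in 4 of the 6 genes, namely Glyma08g06810, Glyma13g32600, Glyma12g01160 and Glyma01g38180. Over all 6265 probes called by limma, that plant was the farthest out in 56.4%, against 24.5% for plant 1 and 19.1% for plant 2. Well-watered plant 16 was the farthest out in 3 of the 6 genes (Glyma08g06810, Glyma12g01160 and Glyma02g08950) and in 44.1% of the called probes.

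Other genes of the chain were looked up in the annotation. The paper's list of BR genes holds 8 entries, 5 of which are members. The other 3 were also chosen by the paper on these samples, and all were lower under drought. SMT2 adds the second methyl group to the side chain, and its match Glyma04g02270 had log2 signals of 0.62, 0.43 and 0.55 with water and -0.66, -0.43 and -0.60 under drought. Its log2 fold change was -1.09 (SE 0.16), only 0.095 past the fold of 2. DWF1 reduces the side chain to give campesterol and sitosterol, and its match Glyma12g03210 had log2 signals of 0.95, 0.62 and 0.67 with water and -0.62, -0.83 and -1.44 under drought (log2 fold change -1.71, SE 0.23). Drought-stressed plant 4 was the lowest in this gene. BES1 is a transcription factor of the BR response, and its match Glyma14g08320 had log2 signals of 0.55, 0.37 and 0.95 with water and -0.72, -0.37 and -0.61 under drought (log2 fold change -1.19, SE 0.20). Thus the matches of SMT1, SMT2, STE1 and DWF1 were lower, in a set of genes picked by their change. All 4 enzymes act after ring closure, but so does DWF4, whose match was higher (log2 fold change 1.55). No trend along the chain is read from genes picked in this way.

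Of genes chosen by description alone, 9 were found in 1849 annotation rows of the paper, all for gene IDs of chromosome 1. The *DWF4* match stands in the same rows and is left out of the 9 as a member, so their count is of the genes that remained. They were picked by the words of their descriptions and not by their values, although earlier results of these data were known, and were tested by limma with adjustment over all probes. At a fold of 2, 0 of the 9 were called by limma, beside 9.46% of all probes, and nothing is read from so small a set. By limma, 3 of the 9 had an unadjusted p under 0.05, as did 26.5% of all probes. The methods' t-test, which does not share spread between probes, called 0 of them, and 5.75% of all probes. With no fold minimum, 2 were higher and 1 lower at an adjusted p under 0.05, beside 7.75% and 8.62% of all probes (16.4% together). The median log2 fold change of the 9 was -0.054, and that of all probes was -0.050.

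HMG1 is the reductase that controls flow into the mevalonate pathway, ahead of squalene. Its match Glyma01g36080 had log2 signals of -0.22, -0.53 and -0.61 with water and 0.22, 0.24 and 0.56 under drought, without overlap. It rose by 0.79 on the log2 scale (SE 0.18, adjusted p = 0.013 from limma), but it had an adjusted p of 0.069 by the methods' t-test and 0.064 by limma without drought-stressed plant 4. Among the genes of the chain looked up here, it is the highest that stayed under the fold of 2, as Glyma13g32600 is the lowest of the higher members above it.

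Cycloartenol synthase, CAS1, closes the rings of oxidosqualene on the sterol route. Its match Glyma01g00430 fell by 0.72 on the log2 scale (SE 0.17, adjusted p = 0.018 from limma), from 0.30, 0.27 and 0.70 in the well-watered plants to -0.27, -0.28 and -0.32 in the drought-stressed plants. The adjusted p was 0.063 by the methods' t-test, and 0.054, 0.060 and 0.065 by limma without drought-stressed plants 1, 2 and 4 in turn. A neighbouring match of the same enzyme, Glyma01g00450, had a log2 fold change of -0.054 (SE 0.19, adjusted p = 0.91 from limma), with overlapping groups and the opposite sign, 0.061, without well-watered plant 14. The difference between these 2 matches was not tested. SMO2-2, an oxidase that removes a methyl group from the sterol ring, had a match (Glyma01g04170) with a log2 fold change of 0.068 (SE 0.16, adjusted p = 0.87 from limma).

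Later in the chain, ROT3 is a cytochrome P450 that acts after DWF4, and its match Glyma01g37510 had a log2 fold change of -0.23 (SE 0.22, adjusted p = 0.61 from limma). The groups overlapped, and the well-watered plants ranged from -0.30 to 0.53. The match of the hydroxysteroid dehydrogenase HSD5 (Glyma01g43780) had a log2 fold change of 0.051 (SE 0.19, adjusted p = 0.92 from limma), which turned negative without well-watered plant 16 (-0.086) or drought-stressed plant 4 (-0.022). BZR1, a transcription factor related to BES1 that represses BR synthesis genes in *Arabidopsis*, had a match, Glyma01g38450, that rose by 0.60 on the log2 scale (SE 0.17, adjusted p = 0.034 from limma). Its log2 signals were -0.18, -0.52 and -0.25 with water and 0.18, 0.35 and 0.34 under drought. The adjusted p was 0.064 by the methods' t-test and 0.13 by limma without well-watered plant 15. It was 0.057 with the least variable 20% of probes left out, and it was between 0.065 and 0.12 without 1 of the drought-stressed plants. The matches of BIM2, a partner of BES1 (Glyma01g09010), and of BRS1, a carboxypeptidase tied to the BR receptor (Glyma01g12110), had log2 fold changes of -0.26 (SE 0.16, adjusted p = 0.39 from limma) and -0.40 (SE 0.22, adjusted p = 0.29).

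**Figure D3:**
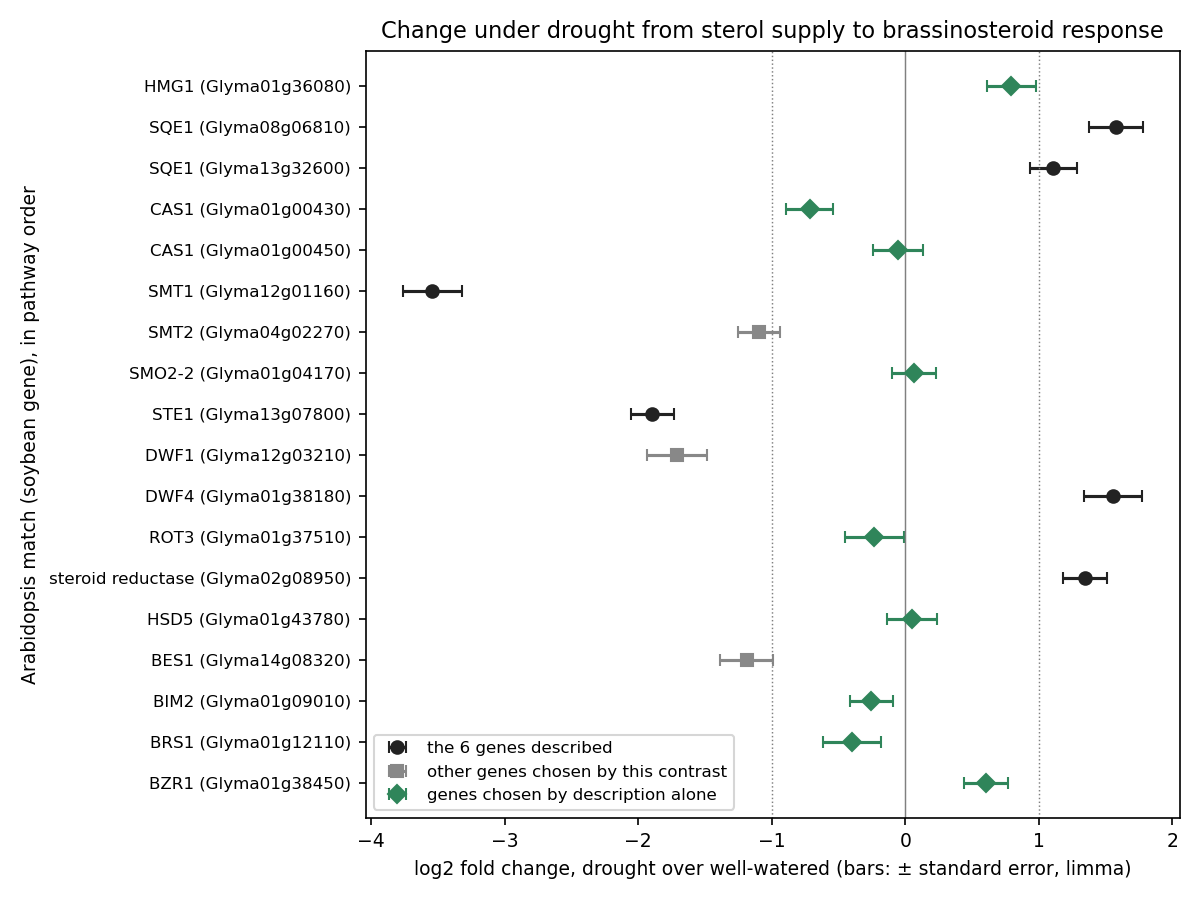
Log2 fold change, drought-stressed minus well-watered (x axis, bars ± SE from limma) for genes in pathway order from sterol supply to BR response (the places of the steroid reductase and HSD5 matches are assumed), with dotted lines at a fold of 2. Black circles are the 6 genes described, grey squares 3 further genes chosen on this contrast, and green diamonds 9 genes chosen by description, of which the highest, the HMG1 match, reaches 0.79.

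The 2 loci on each side of a member, in the order of gene IDs on the array, gave 24 neighbours whose values had no part in the choice of members. Of these, 2 were higher and 2 lower at a fold of 2 by limma, which is 4 of 24 beside the 9.46% of all probes. Beside the *SQE1* match Glyma08g06810, Glyma08g06780 rose by 1.09 on the log2 scale (SE 0.16, adjusted p = 9.8e-04), and Glyma08g06820 fell by 1.99 (SE 0.25, adjusted p = 3.2e-04 from limma). Glyma08g06790, nearest on the lower side, rose by 0.72 (adjusted p = 0.013 from limma, 0.052 without drought-stressed plant 4), below the fold of 2. Log2 signals of Glyma08g06820 were 0.62, 1.11 and 0.95 with water and -0.62, -1.13 and -1.56 under drought, and thus ran opposite to those of the *SQE1* match next to it. No role is given for these loci in the tables used here. Beside the other *SQE1* match, Glyma13g32580 rose by 1.26 (SE 0.22, adjusted p = 0.0027 from limma), although its adjusted p was 0.067 by the methods' t-test. Glyma13g32590, between it and the *SQE1* match, had a log2 fold change of 0.47 (limma adjusted p = 0.17).

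Beside the *STE1* match, Glyma13g07780 fell by 1.13 (SE 0.17, adjusted p = 0.0011) and Glyma13g07810 rose by 0.75 (adjusted p = 0.012 from limma, 0.062 without drought-stressed plant 4). The adjacent Glyma13g07790 had a log2 fold change of -0.30 (limma adjusted p = 0.61), and its groups overlapped. The 4 loci around the *SMT1* match, Glyma12g01140 to Glyma12g01180, had log2 fold changes between -0.29 and 0.16, and none of these 4 had an unadjusted p under 0.05 by limma. The neighbours of the *DWF4* match had values between -0.26 and 0.48, and the highest belonged to Glyma01g38200, a match of a succinate dehydrogenase subunit. Those of the steroid reductase match lay between -0.76 and 0.068. The lowest of them, Glyma02g08970, had an adjusted p of 0.072 by limma, and a log2 fold change of -1.01 without well-watered plant 16.

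**Figure D4:**
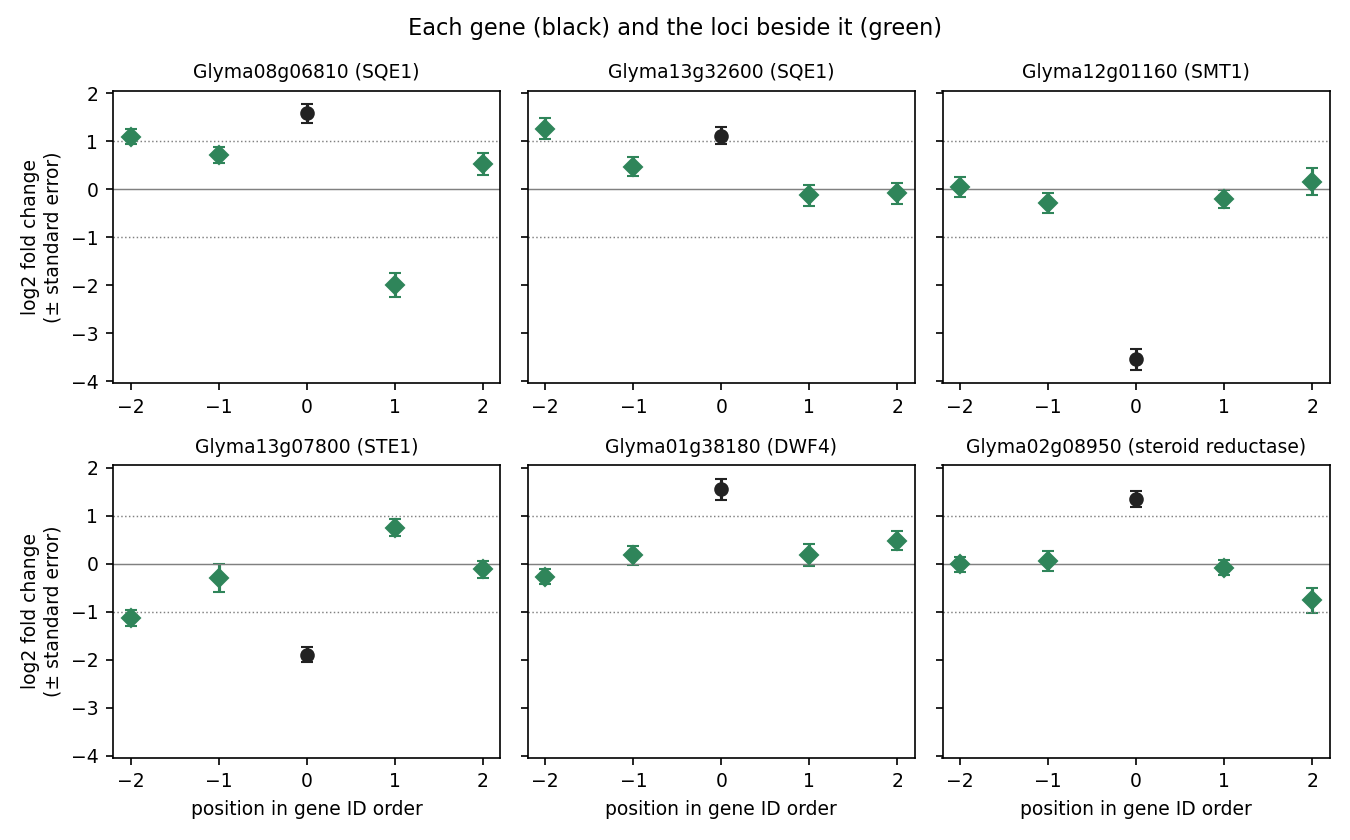
Log2 fold change (y axis, bars ± SE from limma) of each of the 6 genes (black circle, position 0) and of the 2 loci on each side in gene ID order (green diamonds), with dotted lines at a fold of 2. The *SMT1* match at -3.54 lies apart from neighbours between -0.29 and 0.16. Loci beside the *SQE1* matches have values from 0.47 to 1.26 on the lower side and from -1.99 to 0.53 on the upper side.

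The probe most like each gene was found by the Euclidean distance between mean-centred log2 values over the 6 plants. For Glyma08g06810 it was Glyma08g06040 on the same chromosome, at a distance of 0.16 and with a log2 fold change of 1.48. For Glyma13g32600 it was Glyma16g17190, at a distance of 0.068 (log2 fold change 1.08), the smallest of the 6 distances. Distances were not scaled to the size of the change, so they do not rank likeness between the genes. For the *SMT1* match it was Glyma03g38360, at 0.26 (log2 fold change -3.46). For the *STE1* match it was Glyma01g43010, described as a hydroxyproline-rich glycoprotein family gene, at 0.13 (log2 fold change -1.95). For the *DWF4* match it was Glyma18g44830, at 0.16 (log2 fold change 1.67), and for the steroid reductase match Glyma15g20550, at 0.20 (log2 fold change 1.30). None of the 6 was the probe most like another of the 6. With 66195 probes to pick from and unscaled distances, this was likely beforehand, and nothing is read from it. Quantile normalization left each of these 6 nearest probes the same. Centring of the arrays on their medians shifts all probes of an array alike, so it cannot change these distances and is no check of them. The second nearest probe was almost as close for the *SMT1* match (0.27) and the steroid reductase match (0.22).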

How the data were processed

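RNA of 6 leaves was measured on 1 array each. The deposited log2 values come from the authors' gene-level RMA in Affymetrix Expression Console without normalization, followed in GeneSpring by scaling to the 75th percentile; the centring of each probe on its median was seen from the values. A deposited comparison also holds a signed fold change as a score and p-values by the authors, which were not used; only its gene IDs were read. Groups were compared with lmFit and eBayes in limma 3.58.1 (R 4.3.3) over all 66195 probes, with 4 residual and 5.93 prior degrees of freedom and Benjamini-Hochberg adjustment, and called at a fold of 2 and an adjusted p under 0.05. The median SE was 0.19, and signal over background cannot be had from centred values. An exact permutation test of 3 against 3 plants cannot give a p below 0.1. The code was tested on simulated data. Members and gene lists were chosen with earlier results of these data known, the members and the paper's list by their change, the genes found by description and the neighbouring loci without use of their values. Named were the members, the remaining BR genes of the paper's list, genes found by description in 1849 annotation rows, 2 loci on each side and the nearest probe. The RefSeq gene table holds 0 of the array's gene IDs, so it named none, and sequences and coordinates are not given. Alternatives were array centring, quantile normalization, array quality weights, a robust prior, the methods' t-test, a filter on the least variable 20% of probes, and each plant left out; the neighbouring loci were run through them after the data were seen.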

Additional observations from a re-analysis of the deposited data

How the results depend on the processing

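All 6 genes kept their direction and stayed past both thresholds under each of 12 alternatives, with log2 fold changes of 1.02 to 1.26 for Glyma13g32600, the gene nearest to the fold of 2, when plants were left out in turn. Because the 6 genes were chosen by their change on these same arrays, this stability was largely set by the choice and is no further evidence of change. The genes close to that fold could lose their call through an equal shift of all drought-stressed arrays. Such a shift would have to exceed 0.11 for Glyma13g32600, 0.095 for Glyma04g02270 and 0.19 for Glyma14g08320. The methods' t-test called 1808 probes higher and 2000 lower, against 2864 and 3401 by limma. It called all 6 genes, of which 5 had been listed by the paper with that kind of test. Of the loci beside the 6 genes, it called 1 higher against 2, since Glyma13g32580 (1.26) was not called. Without well-watered plant 16, Glyma02g08970 was called lower, at -1.01. Signs turned in uncalled genes near 0 when plants were left out in turn, with ranges of -0.21 to 0.061 for Glyma01g00450 and -0.086 to 0.17 for Glyma01g43780, which was also negative (-0.022) without drought-stressed plant 4. Among genes chosen by description, the 3 adjusted p-values under 0.05 (Glyma01g36080, Glyma01g00430, Glyma01g38450) were all above 0.05 by the methods' t-test. No paired analysis was possible because the groups share no plant number.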
